A study of Mus musculus with 18 samples.

Results

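The 10 genes described are members of the interleukin-1 (IL-1) family and the inflammasome and were followed across the 6 treatment groups of an array study of mouse macrophages. They were taken as a list by name and role, out of 23102 genes measured, and were the cytokines Il1a, Il1b and Il18, the soluble antagonists Il1rn and Il18bp, the sensor Nlrp3, the adaptor Pycard, the inflammatory caspases Casp1 and Casp4, and the pore-forming protein Gsdmd. The list was chosen with earlier results of these data known. The cells were J774, a macrophage-like mouse line grown in culture, and so the values come from a single established line. Talc, a magnesium silicate mineral, and titanium dioxide (TiO2), a particle used beside it, were given at 10 µg per well in 24-well plates, with or without 17-β estradiol at 2 µg/mL, for 24 h. The groups were talc plus estradiol, talc alone, TiO2 plus estradiol, TiO2 alone, estradiol alone and vehicle, with 3 arrays each, 18 in all. Total RNA was read on Affymetrix arrays. The labels leave unsaid if a group's 3 arrays were 3 cultures, and the p-values therefore reflect the scatter of these arrays, which could be technical.

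IL-1 cytokines are among the earliest signals of a macrophage that meets a particle or a microbe. In a first step, called priming, NF-κB and related factors switch on transcription of pro-IL-1β and of parts of the sensing machinery. In a second step, NLRP3 and its adaptor ASC (the product of Pycard) assemble an inflammasome that activates caspase-1, which cuts pro-IL-1β and pro-IL-18 and opens gasdermin D pores, while caspase-11 (the product of Casp4 in mouse) opens the same pores on sensing bacterial lipopolysaccharide inside the cell. Arrays measure RNA, and so bear on none of the cutting, assembly or release.

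The genes lie on several chromosomes of the GRCm38.p6 build of the mouse genome. Il1a (chr2:129299609-129310186) and Il1b (chr2:129364569-129371164) lie close together on chromosome 2, and Il1rn (chr2:24336860-24351491) is on the same chromosome. Casp1 (chr9:5298517-5307281) and Casp4 (chr9:5308849-5336791) are neighbours on chromosome 9, which also holds Il18 (chr9:50554700-50581841). Il18bp (chr7:102015074-102018232) and Pycard (chr7:127991373-127993867) are on chromosome 7, Nlrp3 (chr11:59541569-59566955) is on chromosome 11, and Gsdmd (chr15:75862144-75867408) is on chromosome 15. RefSeq promoter windows of that build, running from 250 bases before an annotated start of a gene to 50 after it, were searched for 3 motifs. The motifs belong to priming and to the start of transcription. The motifs were the NF-κB consensus (either strand), the AP-1 site TGANTCA (its letters are the same on either strand, apart from the N) and the TATA box TATAAA on the strand of the gene. Where windows of a gene overlapped, only the one with the lowest coordinates was kept. Windows were found for 9 of the 10 genes, 11 windows in all after that step. For Il1a and Il1b, on the minus strand, the start of the window lay inside the gene limits given above. The 4 windows of the 3 genes that were higher with talc are printed 5′ to 3′ on the strand of the gene, with the motif matches in capitals.
Il1rn, upstream start, chr2:24336610-24336909, plus strand: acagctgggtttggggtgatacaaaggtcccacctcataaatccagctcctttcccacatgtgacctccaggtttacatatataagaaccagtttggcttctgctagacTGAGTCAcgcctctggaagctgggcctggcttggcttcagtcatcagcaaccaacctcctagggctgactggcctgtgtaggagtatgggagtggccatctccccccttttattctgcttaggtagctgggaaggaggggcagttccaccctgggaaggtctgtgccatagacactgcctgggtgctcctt
Il1rn, downstream start, chr2:24345041-24345340, plus strand: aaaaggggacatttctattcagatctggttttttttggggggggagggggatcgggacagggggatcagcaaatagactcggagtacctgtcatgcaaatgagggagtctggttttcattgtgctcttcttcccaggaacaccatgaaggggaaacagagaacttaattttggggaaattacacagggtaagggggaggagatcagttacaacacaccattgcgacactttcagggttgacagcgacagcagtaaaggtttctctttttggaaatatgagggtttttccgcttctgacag
Il1b, chr2:129371090-129371389, minus strand: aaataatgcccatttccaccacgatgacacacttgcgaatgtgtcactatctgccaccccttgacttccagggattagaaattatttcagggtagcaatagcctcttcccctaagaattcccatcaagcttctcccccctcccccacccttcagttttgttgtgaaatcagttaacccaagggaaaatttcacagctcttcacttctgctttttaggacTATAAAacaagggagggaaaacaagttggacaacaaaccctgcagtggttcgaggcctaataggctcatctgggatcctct
Casp4, chr9:5308599-5308898, plus strand: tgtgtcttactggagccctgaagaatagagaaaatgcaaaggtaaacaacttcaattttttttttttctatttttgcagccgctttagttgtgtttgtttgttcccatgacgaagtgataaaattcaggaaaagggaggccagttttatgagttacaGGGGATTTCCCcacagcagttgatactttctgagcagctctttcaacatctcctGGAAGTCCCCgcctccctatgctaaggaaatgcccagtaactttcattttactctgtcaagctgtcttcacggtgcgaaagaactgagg
In the Casp4 window the capitals mark NF-κB consensus matches that begin 93, 92 and 39 bases before the start, of which the first pair overlap. In the Il1b window they mark a TATA box 31 bases before the start, and in the upstream Il1rn window an AP-1 site 141 bases before it. The downstream Il1rn window held no match to the 3 motifs. Il1a had an AP-1 site and a TATA box, and Nlrp3 an NF-κB match in its upstream window and none in its downstream window. Il18, Pycard, Il18bp and Casp1 had none, and Gsdmd had no window. Among all 32851 windows, with no overlapping ones left out, 8.46% held the NF-κB consensus, 7.81% the AP-1 site and 8.32% the TATA box. A match is a description of the letters and not evidence of a bound factor.

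The arrays resembled one another closely, with median intensities between 45.6 and 48.0. Of 8 macrophage markers, the dimmest was Adgre1, at the 67.9th percentile of brightness among all genes, and Cd68 and Cd14 were at the 99.9th. The 14 measured markers of fibroblasts, epithelial cells, lymphocytes and granulocytes lay between the 11.8th percentile (Dcn) and the 57.5th (Krt8). The mean level of the macrophage markers ranged from 9.86 to 9.93 with talc plus estradiol, 9.73 to 9.86 with talc, 9.82 to 9.84 with TiO2 plus estradiol, 9.79 to 9.97 with TiO2, 9.89 to 9.92 with estradiol and 9.96 to 10.00 with vehicle, on the log2 scale. Among those markers Cd14 passed the test as higher with talc, and Itgam and Adgre1 passed as lower. Of the 14 markers of other cell types, Pdgfra passed as lower with talc. The part of these markers in the results was not tested. The numbers that the labels give the arrays run through the groups in order, so that array order and treatment cannot be told apart. In RNA of whole wells, fewer cells that express a gene and less RNA per cell cannot be told apart either.

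Talc raised the RNA of Il1rn, Il1b and Casp4 and lowered that of Il18 and Pycard, in the comparison that averages the effect of talc with estradiol (against estradiol) and without it (against vehicle). Il1rn had the largest change of the 10 genes, 2.6-fold, and Il1b followed with 1.82-fold. The sensor Nlrp3, the caspase Casp1, the pore former Gsdmd, the cytokine Il1a and the antagonist Il18bp did not pass. All values are log2 intensities of a gene, the mean over its probe sets, and a gene passed where its adjusted p from limma (Benjamini-Hochberg over all genes, two-sided) was under 0.05. By that rule 3 of the 10 genes were higher and 2 lower, where 7.92% of all genes were higher and 6.87% lower. The 10 genes were chosen with earlier results of these data known, so these shares are a description and not a test of the list. The median change of the 10 genes was 0.11 log2 units, against 0.01 over all genes. In the single comparisons, talc plus estradiol against estradiol gave 3 higher and 1 lower gene (4.13% and 3% of all genes), and talc against vehicle gave 2 higher and 1 lower (3.94% and 4.52%).

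Il1rn encodes the IL-1 receptor antagonist, which occupies the IL-1 receptor without signalling. Its level was 7.87, 7.74 and 8.03 in the arrays of talc plus estradiol, and 8.34, 8.13 and 8.59 in those of talc alone. Estradiol alone gave 6.44, 6.82 and 6.78, and vehicle gave 6.70, 6.83 and 6.87. All 6 talc arrays lay above all 12 arrays without talc, TiO2 included. The averaged talc effect was 1.38 ± 0.12 log2 units (SE, n = 3 arrays per group, adjusted p = 8.5e-07 by limma). It was 1.20 ± 0.17 with estradiol (2.3-fold, adjusted p = 0.00036) and 1.55 ± 0.17 without it (2.94-fold, adjusted p = 2.6e-05). Talc alone had the highest group mean, 8.35 ± 0.23 (SD), against 7.88 ± 0.14 for talc plus estradiol. The other 4 group means lay between 6.45 (TiO2) and 6.80 (vehicle), with SDs of 0.09 to 0.30, and the arrays of these 4 groups overlapped.

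Il1b encodes IL-1β, which is made as an inactive precursor on priming. Its level was 4.91, 4.62 and 4.58 with talc plus estradiol and 4.67, 4.78 and 4.41 with talc. It was 3.80, 3.73 and 3.92 with estradiol, and 3.52, 3.74 and 4.07 with vehicle. Here too the 6 talc arrays stood above all 12 others, with no overlap. Averaged over the arms, Il1b was higher by 0.87 ± 0.13 (adjusted p = 0.00016), with 0.89 ± 0.18 in the presence of estradiol (adjusted p = 0.0062) and 0.84 ± 0.18 in its absence (adjusted p = 0.0073). The group means were 4.71 ± 0.18 and 4.62 ± 0.19 with talc, with and without estradiol, and from 3.63 to 3.82 in the other 4 groups, whose order is not separated by their spread. Il1b was dim on this array: the mean over all arrays put it at the 35.3rd percentile of genes, and none of its probe sets was above the median brightness of all probe sets. Brightness depends on the probes, so it does not rank the abundance of one gene against another.

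Il1a encodes IL-1α, which needs no caspase to be active and signals through the same receptor as IL-1β. Its 18 values ran from 2.93 to 3.73, at the 18.8th percentile of brightness. The group means were 3.45 ± 0.07 with talc plus estradiol, 3.39 ± 0.25 with talc, 3.44 ± 0.45 with TiO2 plus estradiol, 3.33 ± 0.22 with TiO2, 3.35 ± 0.28 with estradiol and 3.42 ± 0.26 with vehicle. All 6 groups overlapped. The averaged talc effect was 0.04, with a 95% interval from -0.27 to 0.34, so a change as large as that of Il1b lay outside the interval, as measured by these dim probe sets.

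Il18, a cytokine that macrophages make without priming and that caspase-1 cuts, went the other way from Il1b. Its level was 6.44, 6.30 and 6.45 with talc plus estradiol and 6.56, 6.31 and 6.16 with talc. With estradiol it was 6.61, 6.77 and 7.06, and with vehicle 6.88, 7.05 and 6.89. The 6 talc arrays were the lowest of the 18, though the highest of them, at 6.56, was almost level with the nearest other array, one of TiO2 alone at 6.57. Averaged over the arms, the change was -0.51 ± 0.10 (0.704 times the level without talc, adjusted p = 0.0023). Against vehicle, talc alone gave -0.60 ± 0.15 (adjusted p = 0.015), and against estradiol, talc plus estradiol gave -0.42 ± 0.15, which did not pass (adjusted p = 0.10). The talc effect without estradiol lost its call when talc replicate 2 (-0.58), talc replicate 3 (-0.51) or vehicle replicate 2 (-0.54) was left out, with adjusted p between 0.051 and 0.086. Over all alternatives that adjusted p ran from 0.0042 to 0.35.

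Il18bp encodes the IL-18 binding protein, a soluble decoy that neutralises IL-18. Talc plus estradiol gave 5.04, 5.22 and 5.10, and talc gave 4.97, 5.25 and 4.99. TiO2 plus estradiol gave 4.78, 5.17 and 4.81, and TiO2 gave 5.57, 5.76 and 5.34. Estradiol gave 5.32, 5.31 and 5.30, and vehicle 4.83, 4.72 and 4.97. TiO2 alone had the highest arrays and vehicle the lowest array, and the talc groups lay mostly between them. The averaged talc effect was 0.02 (95% interval -0.17 to 0.22, adjusted p = 0.93). That average joined changes of opposite sign, neither of which passed in limma. Talc against vehicle gave 0.23 ± 0.13 (adjusted p = 0.36), with overlapping arrays. Talc plus estradiol against estradiol gave -0.19 ± 0.13 (adjusted p = 0.48), with every talc plus estradiol array below every estradiol array.

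NLRP3 is the sensor that particles such as silica and urate crystals are known to trigger. Nlrp3 levels were 8.30, 8.34 and 8.10 with talc plus estradiol, 7.90, 8.20 and 7.94 with talc, 8.27, 8.18 and 8.26 with estradiol, and 7.91, 7.96 and 7.79 with vehicle. The arrays overlapped between talc and its control in both arms. The averaged change was 0.06 (95% interval -0.13 to 0.26, adjusted p = 0.76), an interval that leaves out changes of the size seen for Il1b. Pycard encodes ASC, which links NLRP3 to caspase-1. Its levels were 6.17, 6.14 and 6.32 with talc plus estradiol, 6.55, 6.24 and 6.30 with talc, 6.60, 6.94 and 6.86 with estradiol, and 6.68, 6.81 and 6.78 with vehicle. All 6 talc arrays were below the 6 arrays with no particle, and one of them, talc at 6.55, was above a TiO2 plus estradiol array at 6.44. The averaged change was -0.49 ± 0.09 (0.711 times, adjusted p = 0.00078). With estradiol it was -0.59 ± 0.12 (adjusted p = 0.0074), and without it -0.39 ± 0.12, short of the threshold (adjusted p = 0.062).

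Casp4 encodes caspase-11, the caspase of the non-canonical inflammasome. It measured 8.41, 8.53 and 8.50 with talc plus estradiol and 8.56, 8.48 and 8.49 with talc. It measured 7.76, 7.86 and 7.98 with estradiol, and 8.14, 8.24 and 8.05 with vehicle. Every talc array was above all 12 others. In the averaged comparison Casp4 was higher by 0.49 ± 0.10 (1.4-fold, adjusted p = 0.0023). With estradiol the change was 0.61 ± 0.14 (1.53-fold, adjusted p = 0.013), a call lost without estradiol replicate 1 (0.56, adjusted p = 0.059, within a range of 0.0019 to 0.40 over all alternatives). Without estradiol it was 0.37 ± 0.14 and did not pass (adjusted p = 0.14). The effect of talc was not shown to differ between the arms, for Casp4 or any other of the 10 genes.

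Casp1, the neighbour of Casp4, encodes the caspase of the canonical inflammasome. Its levels were 8.45, 8.64 and 8.47 with talc plus estradiol, 8.47, 8.39 and 8.48 with talc, 8.15, 8.12 and 8.62 with estradiol, and 8.18, 8.32 and 8.56 with vehicle. The 6 talc arrays were tightly grouped and overlapped with the arrays with no particle in both arms. The averaged change was 0.16 (95% interval -0.13 to 0.45, adjusted p = 0.56). Gsdmd encodes gasdermin D, whose cut fragment forms the pore. Its levels were 8.17, 8.16 and 8.32 with talc plus estradiol, 8.19, 8.18 and 8.13 with talc, 8.10, 7.99 and 8.18 with estradiol, and 7.89, 7.93 and 7.95 with vehicle. Talc alone was above vehicle in every array, and the arrays overlapped in the estradiol arm. The averaged change was 0.18 ± 0.06 with an adjusted p of 0.052, and the alternatives put it on either side of the threshold (range 0.010 to 0.88, passing in 8 of 26).

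**Figure D1:**
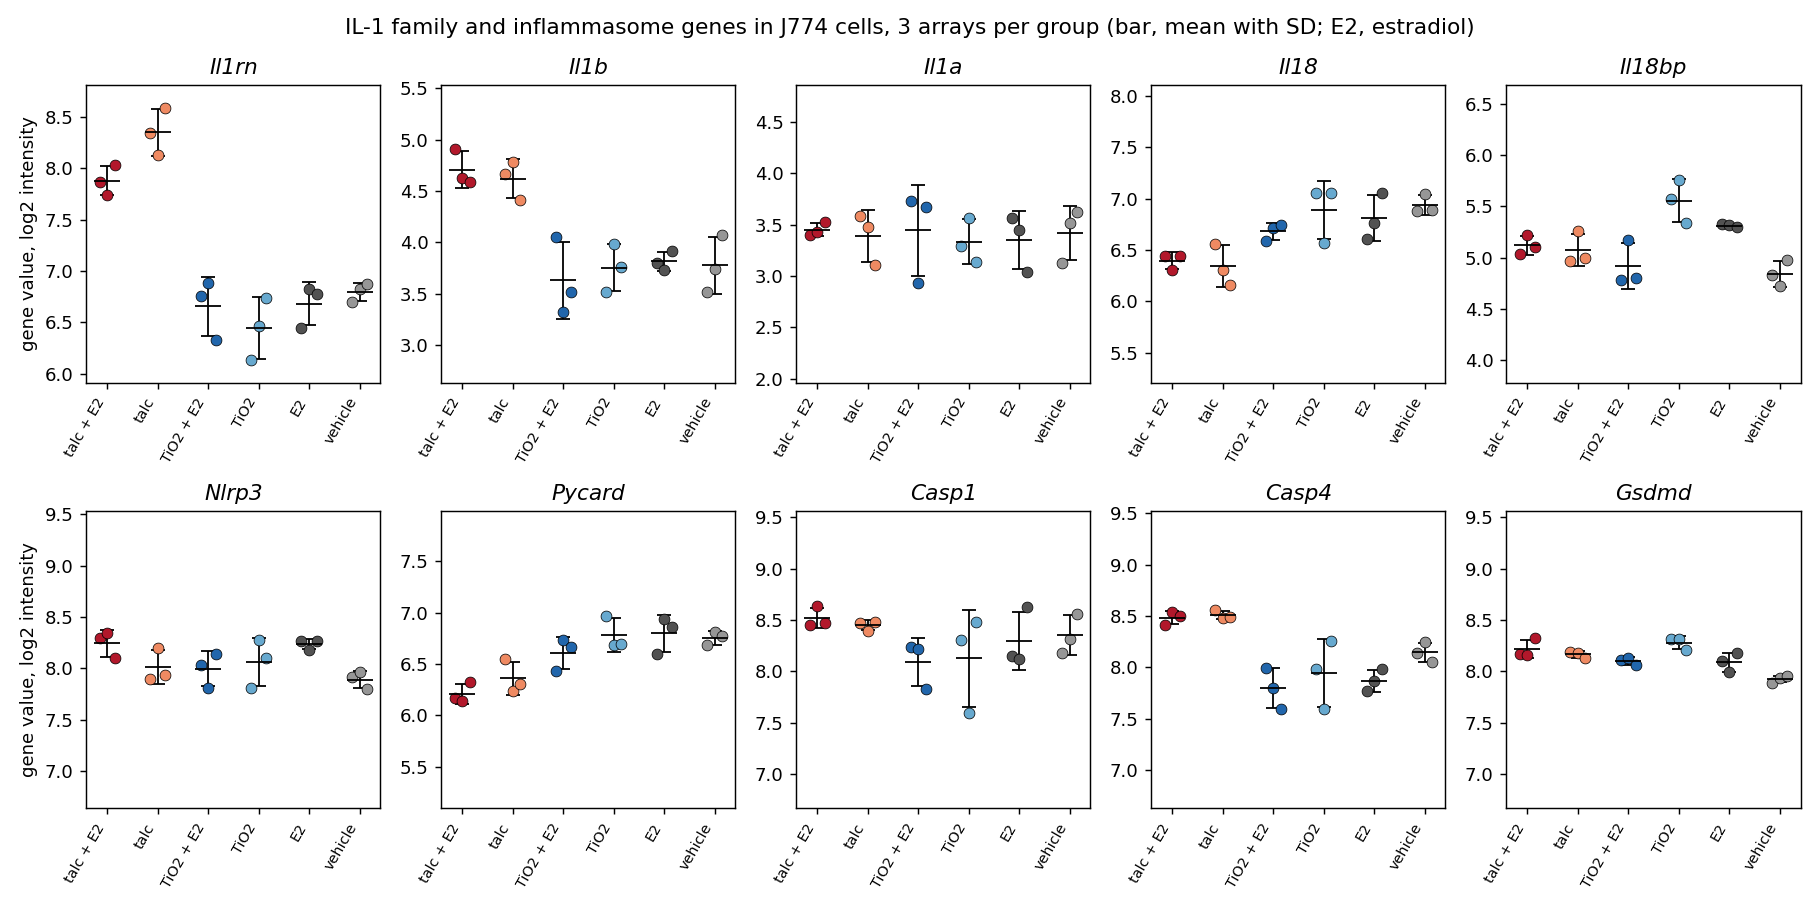
Log2 intensity of each of the 10 genes (y axis, one panel per gene, each with its own range of levels) in the 18 arrays by treatment group (x axis; E2 is estradiol); points are arrays, the bar is the group mean and the whiskers 1 SD (n = 3). The 6 talc points lie above all others for Il1rn, Il1b and Casp4 and below all others for Il18, there by a narrow margin (6.56 against 6.57).

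**Figure D2:**
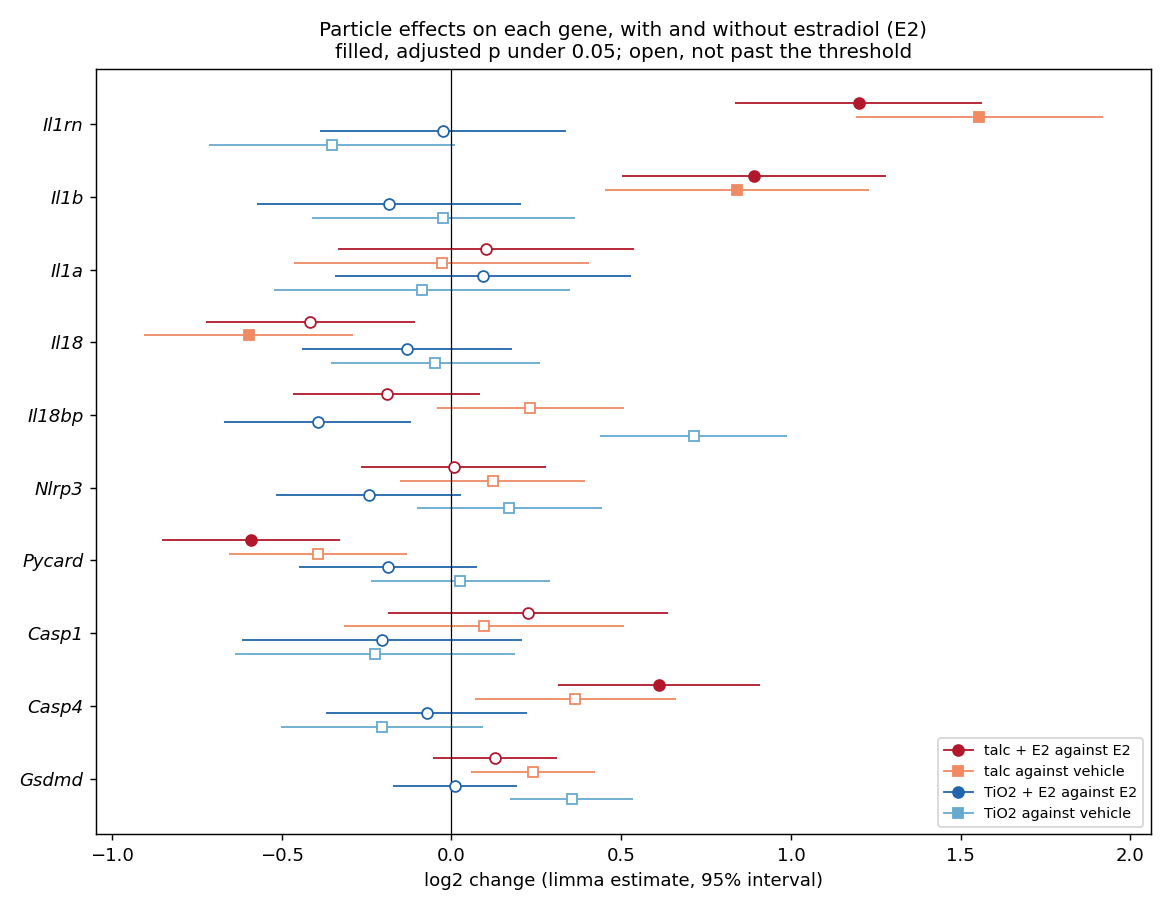
Effect of each particle on each gene (rows) in log2 units (x axis) with 95% intervals, for talc and TiO2 with and without estradiol; filled symbols passed at an adjusted p under 0.05. Il1rn is at 1.20 and 1.55 with talc, and no TiO2 symbol is filled.

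The study also set talc against TiO2, a comparison between particles at the same mass per well. Talc plus estradiol exceeded TiO2 plus estradiol in 3 of the 10 genes and was lower in 0, where 6.66% of all genes were higher and 2.87% lower. The 3 were Il1rn (1.22 ± 0.17, 2.34-fold, adjusted p = 0.00037), Il1b (1.08 ± 0.18, 2.11-fold, adjusted p = 0.0016) and Casp4 (0.68 ± 0.14, 1.61-fold, adjusted p = 0.0054). For these genes TiO2 plus estradiol gave 6.76, 6.88 and 6.33 (Il1rn), 4.05, 3.32 and 3.52 (Il1b), and 7.99, 7.80 and 7.60 (Casp4). Each of those 9 values was below every talc array of its gene. Pycard was lower by less than the threshold asks (-0.40 ± 0.12, adjusted p = 0.051).

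Without estradiol, talc exceeded TiO2 in Il1rn, Il1b and Casp4 and was lower in Il18, Il18bp and Pycard (4.61% of all genes higher, 5.35% lower). TiO2 alone gave 6.14, 6.47 and 6.74 for Il1rn, 3.52, 3.98 and 3.76 for Il1b, and 7.98, 7.59 and 8.25 for Casp4. The differences were 1.91 ± 0.17 for Il1rn (3.75-fold, adjusted p = 6.7e-06), 0.86 ± 0.18 for Il1b (adjusted p = 0.0057) and 0.57 ± 0.14 for Casp4 (adjusted p = 0.015). Il18 read 7.06, 6.57 and 7.05 and Pycard 6.97, 6.69 and 6.70 with TiO2, and their differences were -0.55 ± 0.15 (adjusted p = 0.023) and -0.42 ± 0.12 (adjusted p = 0.041). Il18bp differed by -0.48 ± 0.13 (adjusted p = 0.025), and for that gene the talc arrays overlapped with those of vehicle. The arrays of talc and TiO2 did not overlap in any of the 6 genes. Of these calls, 4 were lost when single arrays were left out. Il18 did not pass without TiO2 replicate 1 or 3 or talc replicate 2 or 3 (-0.53 to -0.46). Il18bp did not pass without TiO2 replicate 1 or 2 or talc replicate 1 or 3 (-0.48 to -0.38). Pycard did not pass without any TiO2 replicate, talc replicate 2 or 3, talc plus estradiol replicate 1, or vehicle replicate 2 or 3 (-0.47 to -0.33). Casp4 did not pass without TiO2 replicate 2 (0.39) or talc replicate 1 (0.55).

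TiO2 itself changed none of the 10 genes past the threshold. Against vehicle, 0 of the 10 passed in limma and in every alternative run, and 0% of all genes passed in that model, with 1886 of 23102 genes at an unadjusted p under 0.05, 2 of the 10 among them. Those 2 were Il18bp (0.71 ± 0.13, adjusted p = 0.23) and Gsdmd (0.35 ± 0.09, adjusted p = 0.35). Il18bp had the 4th smallest p of all genes in that comparison. Gsdmd read 8.31, 8.32 and 8.21 with TiO2, above all 3 vehicle arrays. All 8 probe sets of Il18bp (0.02 to 1.86) and all 14 of Gsdmd (0.15 to 0.83) pointed the same way. Probe sets of a gene read the same arrays, so their common sign is no separate support. The brightest Il18bp probe set had the smallest of its changes, 0.02. Il1rn was at -0.35 ± 0.17 (adjusted p = 0.63) and Il1b at -0.02 ± 0.18. With estradiol present, TiO2 against estradiol gave 0 of the 10 genes (0.00433% of all genes, 2059 genes at an unadjusted p under 0.05), and Il18bp was at -0.39 ± 0.13 (adjusted p = 0.43). Nlrp3 read 8.04, 7.81 and 8.14 and Casp1 8.23, 8.22 and 7.82 with TiO2 plus estradiol, while TiO2 alone gave 7.81, 8.27 and 8.10 for Nlrp3 and 8.31, 7.59 and 8.48 for Casp1. The spread of Casp1 in the TiO2 group, an SD of 0.47, was the widest of the 6 groups for that gene.

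Estradiol changed none of the 10 genes past the threshold, alone or beside a particle. Estradiol against vehicle gave 0 of the 10 and 0% of all genes in limma, with 1124 genes at an unadjusted p under 0.05. Il18bp (0.47 ± 0.13, adjusted p = 0.75) and Nlrp3 (0.35 ± 0.13, adjusted p = 0.98) were the 2 of the 10 below that unadjusted level, and their 3 estradiol arrays were above the 3 vehicle arrays. Talc plus estradiol against talc gave 0 of the 10 and 0% of all genes, with 1521 genes at an unadjusted p under 0.05. Il1rn was lower with estradiol in all 3 arrays, by a difference of -0.47 ± 0.17 that did not pass (adjusted p = 0.71). TiO2 plus estradiol against TiO2 gave 0 of the 10 (0.00866% of all genes, 3012 genes at an unadjusted p under 0.05), with Il18bp at -0.64 ± 0.13 (adjusted p = 0.14).

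Interaction tests asked whether estradiol altered the effect of a particle. For talc, 0 of the 10 and 0% of all genes passed, with 1460 genes at an unadjusted p under 0.05. Il18bp (-0.42 ± 0.18, adjusted p = 0.76 by limma) was the 1 of the 10 below that level. The interaction was -0.36 ± 0.24 for Il1rn (95% interval -0.87 to 0.16, adjusted p = 0.88) and 0.05 ± 0.26 for Il1b (95% interval -0.50 to 0.60). These intervals are wide beside the talc effects themselves, so the arms are not shown to be alike. For TiO2, 0 of the 10 and 0% of all genes passed, with 1860 genes at an unadjusted p under 0.05, and Il18bp, Gsdmd and Nlrp3 (-0.41 ± 0.18, adjusted p = 0.60) were the 3 of the 10 below that level.

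The array reads each gene with several probe sets along its transcripts, which gave a view of how evenly a gene moved. In Il1rn, 9 of 11 probe sets were higher with talc in the averaged comparison and 8 passed on their own, with changes from -0.26 to 2.54. In talc plus estradiol against TiO2 plus estradiol, 7 passed as higher and 1 passed as lower (-1.46 ± 0.34, adjusted p = 0.045 over all probe sets), so the probe sets of Il1rn did not all move one way. In Il1b, 6 of 8 were higher and 3 passed, with changes from -0.22 to 2.27, so the gene value of 0.87 is a mean of probe sets that moved by very different amounts. Casp4 moved most evenly among the genes that were higher: 11 of 11 probe sets were higher, by 0.03 to 0.74, and 3 passed. All 6 probe sets of Il18 were lower (-0.63 to -0.36, 1 passed) and all 5 of Pycard were lower (-0.70 to -0.04, 2 passed). For Casp1, 8 of 10 were higher and 0 passed, for Gsdmd 11 of 14 were higher (-0.30 to 0.42), and for Nlrp3 9 of 13. Over all 233753 single-symbol probe sets, 5% passed in that comparison.

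**Figure D3:**
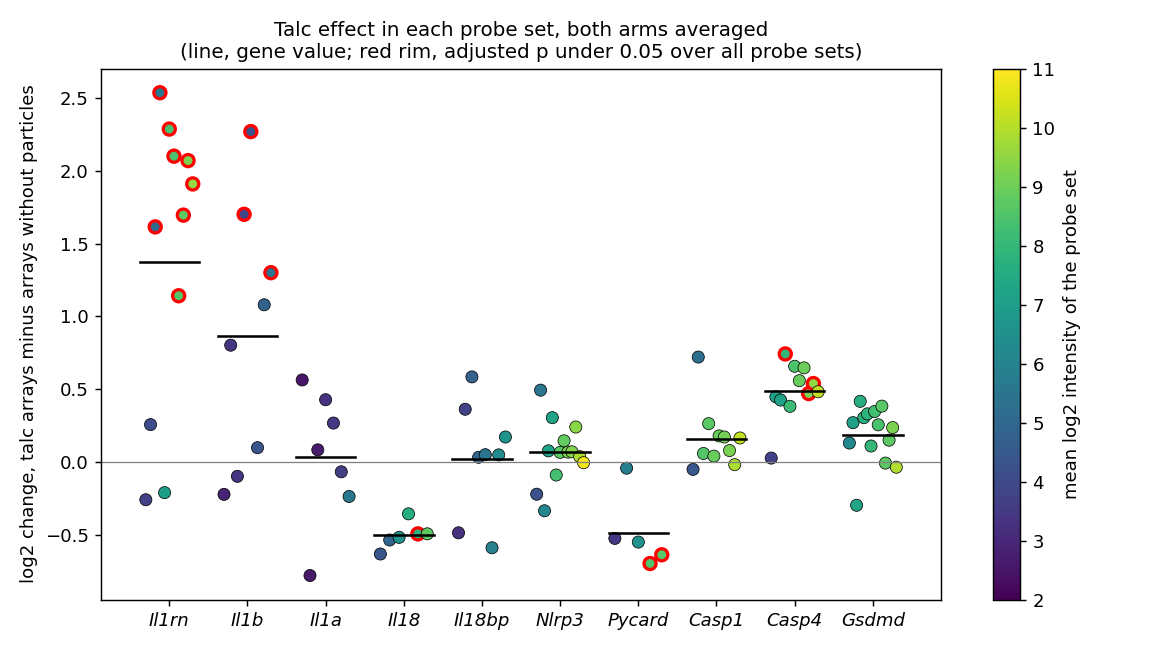
Averaged talc effect (y axis, log2 units) in each probe set of the 10 genes (x axis), coloured by the mean log2 intensity of the probe set; red rims passed at an adjusted p under 0.05 over all probe sets, and black lines are the gene values. Il1rn and Il1b show wide scatter, up to 2.54 and 2.27, while the 11 Casp4 probe sets lie between 0.03 and 0.74.

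Other genes of the pathway were taken from lists by role, and the counts are those of the averaged talc effect. Among receptors of IL-1 and IL-18, 3 of 7 measured genes were lower and 0 higher, with a median change of -0.30, where 7.92% of all genes were higher and 6.87% lower. They were Il1r2, the decoy receptor that binds IL-1 without signalling (-0.91 ± 0.08, adjusted p = 1.2e-06), Il18rap, the accessory chain of the IL-18 receptor (-0.90 ± 0.08, adjusted p = 6.3e-07), and Sigirr, an inhibitory receptor of the family (-0.62 ± 0.07, adjusted p = 1.8e-05). Il1r2 averaged 7.82 ± 0.15 and 7.74 ± 0.24 with talc (with and without estradiol), against 8.77 ± 0.03 with estradiol and 8.61 ± 0.07 with vehicle (SD, n = 3 each). All 3 were also lower in each arm tested alone. Il1rn and Il1r2, whose products both limit IL-1 signalling, thus changed in opposite directions.

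Of 10 genes that carry the receptor signal, Myd88, the adaptor below the receptor (0.31 ± 0.08, adjusted p = 0.0087), and Irak2, a kinase of the same complex (0.28 ± 0.08, adjusted p = 0.030), were higher and 0 were lower (median 0.09, beside 7.92% higher and 6.87% lower of all genes). Of 10 transcription factors and feedback genes of priming, 4 were higher and 0 lower (median 0.18), against the same shares of all genes. Tnfaip3, which encodes the NF-κB inhibitor A20, was higher by 0.82 ± 0.09 (adjusted p = 6e-06), with group means of 7.13 ± 0.02 and 7.06 ± 0.20 with talc, against 6.35 ± 0.005 with estradiol and 6.20 ± 0.02 with vehicle. Nfkbia, encoding the inhibitor IκBα, was higher by 0.55 ± 0.07 (adjusted p = 3.5e-05). Rela, the p65 subunit of NF-κB, was higher by 0.36 ± 0.07 (adjusted p = 0.0016), and Cebpb, a factor that acts on the Il1b promoter, by 0.52 ± 0.14 (adjusted p = 0.018). Talc against vehicle, tested alone, gave 0 higher receptor signal genes and 3 higher priming genes (3.94% of all genes higher). Talc plus estradiol against estradiol gave 1 and 4 (4.13% of all genes higher). Myd88 passed in 0 of 26 alternatives for talc against vehicle, and Cebpb in 2 of 26.

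Of 17 other sensors and regulators of inflammasomes, 2 were higher and 3 lower (median -0.11), where 7.92% of all genes were higher and 6.87% lower, so the count of higher genes was near that background. P2rx7, the ATP-gated channel that triggers NLRP3 (0.54 ± 0.10, adjusted p = 0.00088), and Txnip, a thioredoxin-binding protein (0.39 ± 0.06, adjusted p = 0.00021), were higher. Nek7, a kinase that NLRP3 needs for assembly (-0.34 ± 0.07, adjusted p = 0.0017), and Gbp2, an interferon-induced GTPase (-0.66 ± 0.19, adjusted p = 0.022), were lower. Of 7 other executioners of cell death, 2 were higher and 1 lower (median 0.11), beside those same shares of all genes. Gsdme, another gasdermin, was lower (-0.59 ± 0.09, adjusted p = 0.00018), while Ninj1, which ruptures the membrane of dying cells (0.31 ± 0.09, adjusted p = 0.025), and Ripk3, the kinase of necroptosis (0.25 ± 0.08, adjusted p = 0.044), were higher. The 6 other ligands of the IL-1 family gave 0 calls (median 0.03). Neither TiO2 comparison with its own control, nor estradiol against vehicle, gave a call in any of these lists. The calls of Ripk3, Irak2, Ninj1, Gbp2 and Cebpb were lost on leaving out 11, 8, 6, 4 and 2 of the 18 arrays in turn, with changes of 0.22 to 0.26, 0.23 to 0.28, 0.28 to 0.31, -0.61 to -0.55 and 0.43 to 0.47. Some of these calls did not hold in each arm tested alone. Ripk3 passed in 0 of 26 alternatives for talc against vehicle. Ninj1 and Gbp2 each passed in 0 of 26 for talc plus estradiol against estradiol.

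**Figure D4:**
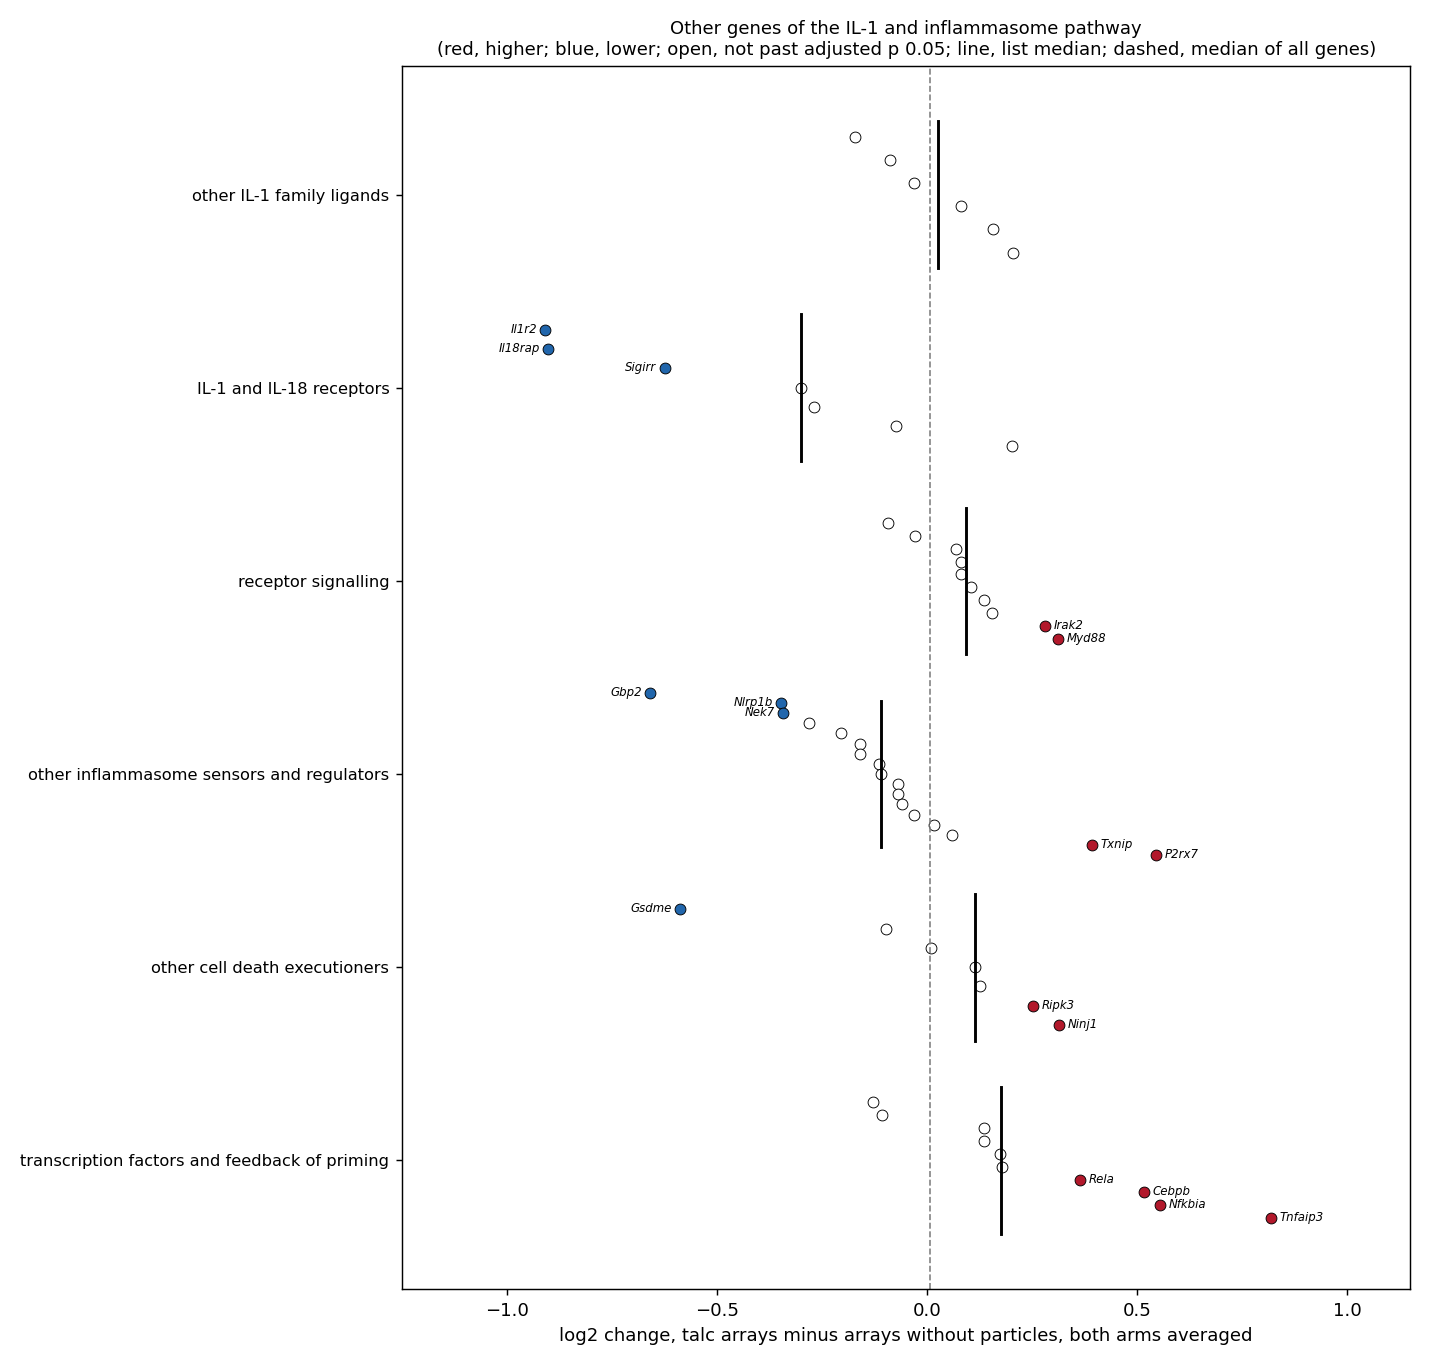
Averaged talc effect (x axis, log2 units) of the other genes of the pathway, grouped by role (y axis); red points were higher and blue points lower at an adjusted p under 0.05, open points did not pass, black lines are list medians and the dashed line is the median of all genes, 0.01. Il1r2 and Il18rap lie near -0.9 and Tnfaip3 at 0.82.

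The genes whose levels most resembled those of Il1rn over the 18 arrays, by Pearson correlation of log2 values, were Bag3 (0.98), Dnttip2 (0.98), Ptafr (0.97), Plk2 (0.96) and Mybbp1a (0.96). The 18 arrays fall into talc and other arrays, and so any gene that talc changed correlates. The genes named for Il1rn and Il1b were picked by correlation over these same 18 arrays. Their values within a part of the arrays are therefore no separate check. Within the 6 talc arrays, 3 of which also had estradiol, Bag3 and Dnttip2 stood at 0.91 and 0.92, and Ptafr, Plk2 and Mybbp1a at 0.74, 0.75 and 0.74. Within the 12 other arrays the 5 genes ran from 0.52 (Mybbp1a) to 0.84 (Bag3). Those closest to Il1b were Bcl3, Ets2, Gprc5a (0.94 each), St3gal1 and Cluh (0.93 each). Within the 6 talc arrays these ran from -0.04 (Cluh) to 0.63 (Bcl3 and Gprc5a), and within the 12 other arrays from 0.58 (Gprc5a) to 0.77 (Bcl3).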

How the data were processed

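Total RNA of 18 J774 arrays was measured. The deposited table holds the authors' linear intensity per probe set and array. The submitters' processing notes name RMA, with no version; the step back from the log2 scale is not given in the sources used here. The values were turned to log2. Of 269751 probe sets, 233753 carried 1 symbol in the platform annotation, which is older than the RefSeq gene list (GRCm38.p6) that updated 2247 symbols; 5106 with several symbols and 30892 with none were left out. A gene was the mean of its single-symbol probe sets (median 8), so opposed probe sets cancel. Group means of 23102 genes were estimated in a single fit with limma 3.58.1 (R 4.3.3, with data.table at version 1.17.8), with 12 residual and 4.57 prior degrees of freedom, 12 contrasts, and Benjamini-Hochberg adjustment over all genes of each contrast. For arrays, their number limits the precision (median SE 0.151 log2 units, 0.213 for interactions). The script was tested on simulated data. Named pathway genes passed in the averaged talc comparison, at most 4 per list by smallest p. For pattern likeness the 5 closest genes were named for each of the 2 members with the largest averaged talc change, leaving out predicted genes, Rik clones and small RNAs. The members, lists and tests were chosen with earlier results of these data known. A few genes of the lists were not analysed here. Alternatives changed the probe set filter, summary, normalization, variance model and arrays used.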

Additional observations from a re-analysis of the deposited data

Results flagged for a closer look

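The effect of TiO2 on Il18bp ran in opposite directions with and without estradiol: the 3 arrays of TiO2 plus estradiol (4.78, 5.17 and 4.81) were all below the 3 of estradiol (5.32, 5.31 and 5.30), while the 3 of TiO2 (5.57, 5.76 and 5.34) were all above the 3 of vehicle (4.83, 4.72 and 4.97). The interaction was -1.11 ± 0.18 log2 units, the 2nd in rank by p of 23102 genes, and it did not pass in limma (adjusted p = 0.18, and from 0.068 to 0.92 over the alternatives). The brightest probe set of the gene, read alone, gave 0.30. Talc also changed Il18bp in opposite directions, by 0.23 ± 0.13 without estradiol and -0.19 ± 0.13 with it, neither past the threshold. The interaction of talc with estradiol was -0.42 ± 0.18 (adjusted p = 0.76 by limma). Both interactions use the same estradiol and vehicle arrays, so the opposite directions are not particular to TiO2. Il18bp was at the 55.1st percentile of brightness among all genes. Of its 8 probe sets, 3 were at or above the median brightness of all probe sets. For Gsdmd the interaction of TiO2 with estradiol was -0.34 ± 0.12 (adjusted p = 0.50, and from 0.35 to 0.67 over the alternatives). Estradiol arrays were below in all 3 with TiO2 (8.11, 8.13 and 8.06, against 8.31, 8.32 and 8.21 for TiO2 alone) and above in all 3 without it (8.10, 7.99 and 8.18, against 7.89, 7.93 and 7.95 for vehicle).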

How the results depend on the processing

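With one choice changed at a time, 4110 of the changes in single genes stayed on their side of the threshold. Of the rest, 152 no longer passed, 56 newly passed and 2 reversed. A reversal was counted only where the change passed in the fit described above or in the alternative. The sign of a change that passed in neither could differ, as for Il1a in talc against vehicle (-0.26 to 0.11 over the alternatives). In the averaged talc comparison Il1rn, Il18 and Pycard passed in all 26 alternatives, Il1b in all 24 that gave it a value, and Casp4 in 25. Casp4 did not pass with the brightest probe set alone (0.48, adjusted p = 0.063, range 0.00023 to 0.063). Il1a and Il1b have no value where dim probe sets or genes below the median level are left out. The number of the 10 genes that passed for talc against vehicle was 3, and 5 of 8 without dim probe sets. For talc plus estradiol against estradiol it was 4, and 1 with the brightest probe set. For talc against TiO2 it was 6, and 3 with the brightest probe set, 2 when the model held only the arrays compared, and 3 with each probe set tested on its own. Leaving out 1 array in turn gave 3 to 6 for talc against TiO2, 2 to 4 for talc against vehicle, 3 to 4 for talc plus estradiol against estradiol and against TiO2 plus estradiol, and 5 to 6 for the averaged effect. With the brightest probe set, Il18bp in talc against TiO2 turned to 0.12 and Gbp2 in talc against vehicle to 0.16, neither past the threshold, and Sigirr in the averaged effect did not pass (-0.50, adjusted p = 0.15). That setting reads 1 probe set per gene; other causes were not tested. No paired analysis was possible because the labels do not say if arrays of different groups belong together. Signal limits Il1a and Il1b most, since all their probe sets are in the dimmer part of the array.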
